A study of Homo sapiens with 12 samples.

Results

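The MYC, MAX and MXD network was followed through 8 genes, MYC, MYCN, MAX, MXD1, MXD3, MXD4, MXI1 and MNT, chosen by name from the 28035 genes of the deposited table of normalized read counts. All 8 were listed once, and all 8 reached the mean of 10 normalized reads over the 12 libraries that was required for testing, as did 15990 genes in all. OVCAR-3 is an established human ovarian adenocarcinoma line of epithelial cells, here with the genotype wt. The cells were collected 6 h after the start of treatment, in 4 groups of 3 libraries. The Combination group received Fusicoccin A (FC-A, a diterpene glycoside of fungal origin that holds 14-3-3 adapter proteins on their phosphorylated partners) together with interferon alpha (IFNa, a secreted antiviral cytokine). The FC-A group received FC-A alone, the IFNa group received IFNa alone, and the DMSO group received the solvent. The sources used here give no doses. All groups come from 1 cell line. The labels do not say whether replicates are separate cultures, and every p-value therefore reflects the spread among these libraries alone, which may be technical.

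MYC and its relative MYCN are transcription factors that bind DNA only as pairs with MAX. The pair recognises the E-box, a short palindromic element, and recruits acetyltransferases and elongation factors. MAX also pairs with the MXD proteins (MXD1, MXD3, MXD4 and MXI1, also called MXD2) and with MNT. Those pairs bind the same element and bring the SIN3 and histone deacetylase corepressor, so they oppose MYC on shared genes. MYC protein and mRNA are both short-lived, MYC drives ribosome production and growth, and the MYC locus is often present in extra copies in ovarian carcinoma. The MXD genes are best known from cells that leave the cycle and differentiate, while MNT is present in most cells and MXD3 is expressed mainly in S phase.

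The network's own element is shown here where it was found, in the promoters of the antagonists MXD4 and MNT. Windows of 300 bases, from 250 bases before a start site to 50 after it, were taken from RefSeq on GRCh38.p14 for 7 of the 8 members, all but MYC, and 10 start sites. The MYC promoter was not analysed here. The letters CACGTG, searched on both strands (the motif is its own reverse complement), were found in 2 of these windows and in 7.26% of 35116 promoter windows of the same length. One match began 238 bases upstream of the MXD4 start site (chr4:2262060-2262359, minus strand) and the other 193 bases upstream of the MNT start site (chr17:2401011-2401310, minus strand). The MXD1 window (chr2:69914859-69915158, plus strand) held no match and is printed beside them for comparison. MXD1 rose with IFNa and MXD4 fell. MXD3 fell too (log2 fold change -1.20) and its window held no match, while MNT, with a match, did not pass (0.09, limma adjusted p = 0.505). A link between these letters and the changes was not tested. Capitals mark the motif, and the sequences run 5′ to 3′ on the gene's strand.
MXD4: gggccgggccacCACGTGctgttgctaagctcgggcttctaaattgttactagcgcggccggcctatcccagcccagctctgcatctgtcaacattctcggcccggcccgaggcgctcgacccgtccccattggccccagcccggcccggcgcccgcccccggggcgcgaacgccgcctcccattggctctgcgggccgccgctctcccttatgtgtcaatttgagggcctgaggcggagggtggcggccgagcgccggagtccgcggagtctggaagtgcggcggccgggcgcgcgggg
MNT: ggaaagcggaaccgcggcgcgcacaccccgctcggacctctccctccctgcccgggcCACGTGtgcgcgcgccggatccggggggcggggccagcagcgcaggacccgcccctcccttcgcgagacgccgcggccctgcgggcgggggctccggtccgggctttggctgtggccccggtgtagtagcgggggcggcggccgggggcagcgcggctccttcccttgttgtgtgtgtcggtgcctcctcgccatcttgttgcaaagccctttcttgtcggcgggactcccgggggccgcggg
MXD1: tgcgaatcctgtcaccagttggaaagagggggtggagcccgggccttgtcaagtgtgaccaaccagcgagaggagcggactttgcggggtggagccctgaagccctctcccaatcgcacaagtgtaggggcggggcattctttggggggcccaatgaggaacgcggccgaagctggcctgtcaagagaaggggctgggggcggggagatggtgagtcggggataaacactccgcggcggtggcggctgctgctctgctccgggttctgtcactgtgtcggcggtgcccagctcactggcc
Letters of the interferon response, TTCNNNGAA (a STAT site of the gamma-activated type) and GAAANNGAA (part of an interferon-stimulated response element), were searched on both strands too. Neither was in any of the 10 windows, and they were in 7.66% and 8.11% of the 35116 windows. A match in a window describes its letters and does not show binding, and a missing match says only that these letters are not in this window. The files use the build hg19, so no position of a measured read was placed on these windows.

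Libraries held 31.2 to 39.5 M reads assigned to genes. The summed normalized reads averaged 36.9 M in the Combination, 32.2 M with FC-A, 37.0 M with IFNa and 32.4 M in DMSO. All 8 markers of ovarian carcinoma epithelium fixed for the check were detected in every group, with EPCAM, an epithelial adhesion molecule, at 8703, 8542, 8876 and 8917 normalized reads in the Combination, FC-A, IFNa and DMSO groups. The 4 listed leukocyte markers summed to 194 to 313 normalized reads per library. The 4 fibroblast markers summed to 1589 to 2189 in the Combination, 1008 to 1086 with FC-A, 1420 to 1931 with IFNa and 854 to 918 in DMSO. Most of that sum was COL1A1, which was higher with IFNa, while COL1A2 averaged 51.1, 83.3, 44.6 and 78.1 in the Combination, FC-A, IFNa and DMSO groups, and DCN, which marks fibroblasts more strictly, had 0 in 11 of the 12 libraries. The 2 endothelial markers found, VWF and CDH5, summed to 115 to 166 in the Combination, 205 to 294 with FC-A, 136 to 188 with IFNa and 242 to 324 in DMSO. Their sum was thus lower in every library with IFNa than in any without. CDH5 taken alone overlapped, at 80.7 to 84.7 in the IFNa group and 69.5 in FC-A replicate 1. The part of these markers in the results was not tested. The 6 libraries with IFNa lay apart from the 6 without on the first principal component (77.7% of the variance). In bulk RNA, fewer cells with a transcript and less of it per cell cannot be told apart.

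MYC was the member with the widest range, and each of the 4 treatments left it at its own level. It had 2376, 2556 and 2115 normalized reads in the Combination libraries, 687, 652 and 599 with FC-A, 2907, 2936 and 3012 with IFNa, and 898, 889.8 and 876 in DMSO. No library of one group overlapped any other group, and the order was IFNa, Combination, DMSO, FC-A from high to low. IFNa raised MYC 3.32-fold over DMSO (a log2 fold change of 1.73 with an SE of 0.07, limma adjusted p = 5.28e-11), to 2952 ± 54.0 normalized reads (mean ± SD, n = 3) with IFNa, against 888 ± 10.9 in DMSO. The Combination raised it 2.64-fold over DMSO (log2 fold change 1.40, adjusted p = 5.32e-10 by limma) and 3.63-fold over FC-A alone (log2 fold change 1.86, adjusted p = 1.93e-11 by limma).

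FC-A lowered MYC when given alone, and the libraries with IFNa differed in the same direction. The fall was 0.46 on the log2 scale (SE 0.07, limma adjusted p = 0.00877), with 646 ± 44.4 normalized reads with FC-A and 888 ± 10.9 in DMSO. Its adjusted p was above 0.05 without FC-A replicate 2 (0.0502), DMSO replicate 1 (0.0590) or DMSO replicate 2 (0.0649), and when the variance was not modelled on the mean (0.0553), while the log2 fold change stayed between -0.51 and -0.41. In the presence of IFNa, MYC averaged 2349 ± 221 normalized reads in the Combination and 2952 ± 54.0 with IFNa alone (log2 fold change -0.33, SE 0.07). That difference missed the threshold by limma (adjusted p = 0.0591), although the groups did not overlap, and Combination replicate 3 was the lowest of the 6 libraries. It passed in 8 of 25 alternatives. These included edgeR (adjusted p = 0.0415), DESeq2 (0.00176) and the authors' deposited table (0.00173). It also passed by limma with the replicate number as a block (0.00345) and without replicate 3 of every group (0.0218). The range over all alternatives was 0.00173 to 0.265. The effects of FC-A on MYC with and without IFNa differed by 0.13 on the log2 scale (SE 0.10, limma adjusted p = 1.0).

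**Figure D1:**
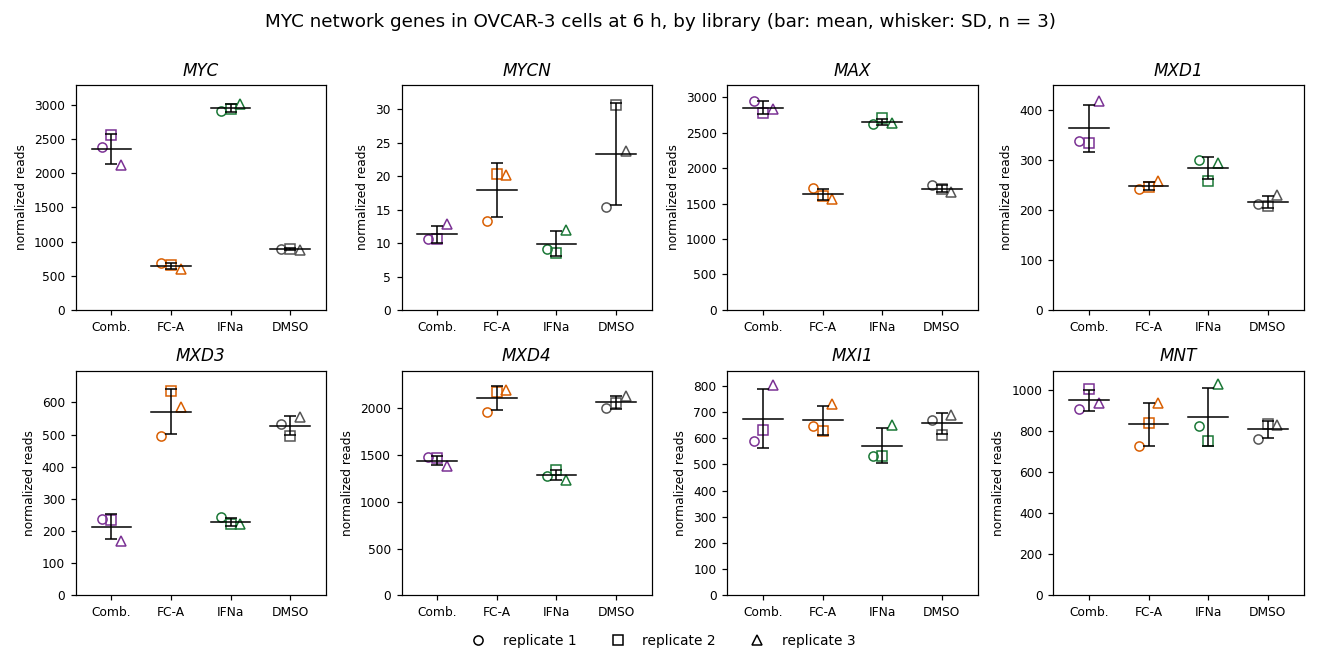
Normalized reads of the 8 network genes (y axis, from 0) in each library of the Combination, FC-A, IFNa and DMSO groups (x axis); points are libraries, bars means and whiskers SD, n = 3. MYC and MAX were high in the 6 libraries with IFNa, MXD3 and MXD4 were low there, and MYCN never passed 30.6 normalized reads.

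MYCN, the paralog known from neuroblastoma, was close to the lower limit of detection and moved opposite to MYC with IFNa. It had 10.6, 10.7 and 12.8 normalized reads in the Combination, 13.4, 20.3 and 20.2 with FC-A, 9.18, 8.57 and 12 with IFNa, and 15.4, 30.6 and 23.8 in DMSO. These values stand for 9 to 32 reads per library, so counting error alone is large. MYCN was lower with IFNa than in DMSO by 1.12 on the log2 scale (limma adjusted p = 0.00672), without overlap, and lower in the Combination by 0.93 (adjusted p = 0.0181). The Combination call did not hold without DMSO replicate 2 (adjusted p = 0.0936), DMSO replicate 3 (0.0566) or replicate 3 of every group (0.0659), nor in the authors' deposited table (0.0826). The Combination was below FC-A in all libraries, but by a difference that missed the threshold (log2 fold change -0.60, limma adjusted p = 0.108).

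MAX, the partner that both arms of the network need, rose with IFNa, by less than MYC. It had 2948, 2769 and 2828 normalized reads in the Combination, 1720.5, 1602 and 1559.9 with FC-A, 2624, 2699 and 2636 with IFNa, and 1759.6, 1708 and 1664 in DMSO. The 6 libraries with IFNa all lay above the 6 without, FC-A and DMSO overlapped, and the Combination lay just above IFNa. IFNa raised MAX 1.55-fold over DMSO (log2 fold change 0.63, SE 0.05, limma adjusted p = 1.18e-07). The Combination raised it 1.66-fold over DMSO (adjusted p = 2.07e-08) and 1.75-fold over FC-A (adjusted p = 7.27e-09, both by limma). Against IFNa the Combination differed by 0.10 (adjusted p = 0.397) without overlap. The difference between the FC-A effects with and without IFNa was 0.17 (SE 0.07), with an unadjusted limma p of 0.0262 and an adjusted p of 1.0.

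MXD1, the repressor first described as MAD1, was the only antagonist that rose with IFNa, and it was highest with both agents. It had 338, 335 and 419 normalized reads in the Combination, 242, 246 and 258 with FC-A, 301, 259 and 294 with IFNa, and 213, 208 and 231 in DMSO. The Combination lay above all other groups, with replicate 3 well above its other libraries, and the lowest IFNa library (258.9) was level with the highest FC-A library (258.4). IFNa raised MXD1 1.31-fold over DMSO (log2 fold change 0.39, SE 0.10, limma adjusted p = 0.00611), and the Combination raised it 1.66-fold (log2 fold change 0.74, adjusted p = 3.28e-05). Against FC-A the Combination was 1.45-fold higher (adjusted p = 0.00052 by limma). FC-A alone was above DMSO in every library but missed the threshold (log2 fold change 0.20, adjusted p = 0.625), as did the Combination against IFNa (0.35, adjusted p = 0.181). The latter passed in 1 of 25 alternatives, by limma with the replicate number as a block (adjusted p = 0.0265). The log2 fold changes of MXD1 and MYC with FC-A had opposite signs, and only that of MYC passed the test.

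MXD3 and MXD4, 2 further repressors of the MXD family, fell with IFNa. MXD3 had 237, 234 and 169.8 normalized reads in the Combination, 494, 635 and 584 with FC-A, 244, 223 and 221 with IFNa, and 531, 497 and 555 in DMSO. It was 2.30-fold lower with IFNa than in DMSO (log2 fold change -1.20, SE 0.13, limma adjusted p = 2.59e-06), 2.49-fold lower in the Combination than in DMSO (adjusted p = 8.84e-07) and 2.68-fold lower than with FC-A (adjusted p = 3.78e-07). Every library with IFNa lay below every library without it. FC-A and DMSO overlapped, and so did the Combination and IFNa.

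MXD4 had 1472, 1466 and 1378 normalized reads in the Combination, 1958, 2172 and 2189 with FC-A, 1279, 1339 and 1229 with IFNa, and 1995, 2058 and 2129 in DMSO. The 6 libraries with IFNa were again below the other 6, and the Combination was above IFNa in every library. IFNa lowered MXD4 1.61-fold relative to DMSO (log2 fold change -0.68, SE 0.06, limma adjusted p = 2.53e-07). The Combination lowered it 1.43-fold relative to DMSO (adjusted p = 4.17e-06) and 1.46-fold relative to FC-A (adjusted p = 2.36e-06). Between the Combination and IFNa the difference was 0.17 on the log2 scale (adjusted p = 0.255 by limma).

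MXI1, a repressor that can use alternative start sites, passed the test in none of the comparisons. It had 589, 630.0 and 802 normalized reads in the Combination, 644, 629 and 731 with FC-A, 532, 531 and 648 with IFNa, and 668, 611 and 689 in DMSO. All groups overlapped, and replicate 3 was the highest library in each of the 4 groups. The lowest mean was that of IFNa, 571 ± 67.2 against 656 ± 40.4 in DMSO (log2 fold change -0.21, limma adjusted p = 0.148), and without replicate 3 of every group the adjusted p was 0.0105 at a log2 fold change of -0.27.

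MNT, the antagonist that most tissues express, had 908, 1004 and 935 normalized reads in the Combination, 724, 838 and 934 with FC-A, 825, 753 and 1027 with IFNa, and 762, 831 and 829.5 in DMSO. The Combination lay above DMSO in every library, and the other groups overlapped. The log2 fold change of the Combination against DMSO was 0.23 (SE 0.11) and missed the threshold by limma (adjusted p = 0.0903). It passed in the authors' deposited table (adjusted p = 0.0126), in a fit of the 2 groups alone (0.00984), without replicate 3 of every group (0.0191) and without IFNa replicate 3 (0.0366). Over all alternatives the adjusted p ran from 0.00984 to 0.307.

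Counted over the network, IFNa against DMSO called 6 of the 8 genes, 3 higher (MYC, MAX and MXD1) and 3 lower (MYCN, MXD3 and MXD4), where 46.9% of all tested genes were called. The Combination against DMSO called the same 6 in the same directions, with 48.3% of all genes called. The Combination against FC-A called 3 higher (MYC, MAX and MXD1) and 2 lower (MXD3 and MXD4), with 48.9% of all genes called. These 3 comparisons share libraries and are not independent. FC-A against DMSO called only MYC, where 0.300% of all genes were called.

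The Combination against IFNa called 0 of the 8 by limma, where 0.331% of all genes were called, and edgeR, DESeq2 and the authors' deposited table called 1, which was MYC. At an unadjusted limma p under 0.05 there were 3, which were MYC, MXD1 and MXD4. The interaction, which subtracts the effect of FC-A alone from its effect on top of IFNa, called 0 members by limma, edgeR and DESeq2, and 0 of all genes by limma (0%). At an unadjusted limma p under 0.05 the interaction had 1 member, MAX, and 627 of all 15990 genes.

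**Figure D2:**
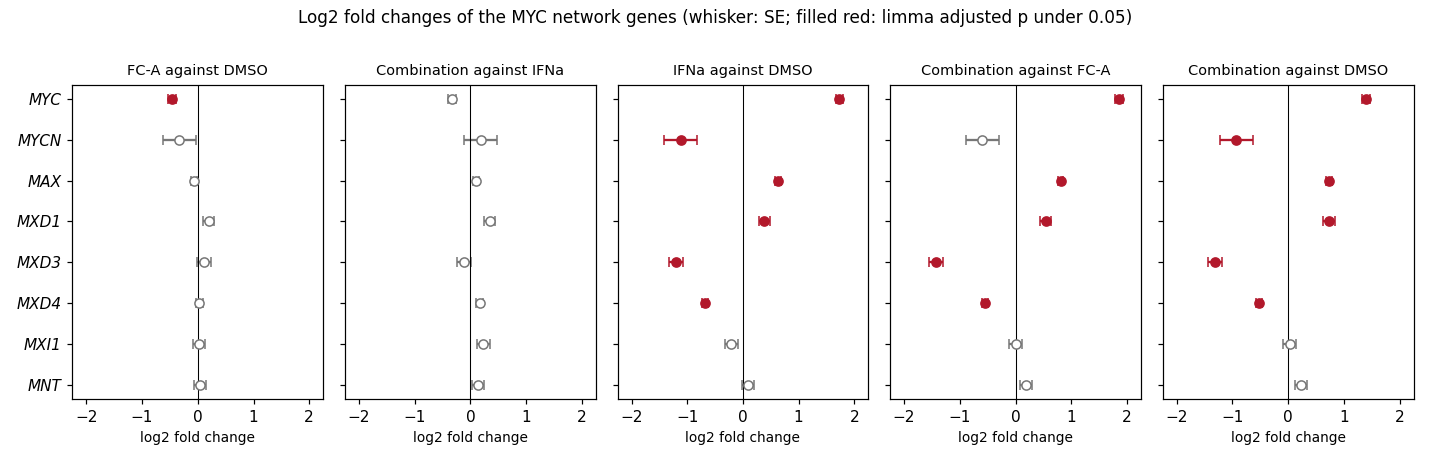
Log2 fold changes (x axis) of the 8 genes (rows) in the 5 pairwise comparisons, 1 panel each; points are limma estimates, whiskers SE, and filled red points passed an adjusted p of 0.05. In the 3 panels on the right, which carry the effect of IFNa, MYC, MAX and MXD1 lie to the right of 0 and MXD3 and MXD4 to the left, and in the 2 panels on the left only MYC with FC-A is filled.

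Because the antagonists compete with MYC for MAX, 3 of them (MXD1, MXD4 and MNT) and MAX itself were also expressed per MYC read within the same library. These ratios compare groups and not genes, since read counts were not divided by transcript length. MXD1 per MYC read was 0.142, 0.131 and 0.198 in the Combination, 0.353, 0.378 and 0.432 with FC-A, 0.104, 0.0882 and 0.0975 with IFNa, and 0.237, 0.233 and 0.263 in DMSO. No group overlapped another, and the order was FC-A, DMSO, Combination, IFNa from high to low. MXD4 per MYC read kept that order without overlap, at 0.615 ± 0.0392 in the Combination, 3.28 ± 0.405 with FC-A, 0.435 ± 0.0245 with IFNa and 2.32 ± 0.104 in DMSO. MAX per MYC read was 1.22 ± 0.128 in the Combination, 2.52 ± 0.0760 with FC-A, 0.899 ± 0.0222 with IFNa and 1.93 ± 0.0309 in DMSO. MNT per MYC read was 0.406 ± 0.0320, 1.30 ± 0.253, 0.294 ± 0.0431 and 0.910 ± 0.0535 in the Combination, FC-A, IFNa and DMSO groups. All these ratios share MYC as the denominator, and their order is the reverse of the order of MYC itself. They are therefore not separate observations of the antagonists. MXD3 and MXI1 were not expressed this way. No test was run on these ratios, which are given as a description.

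**Figure D3:**
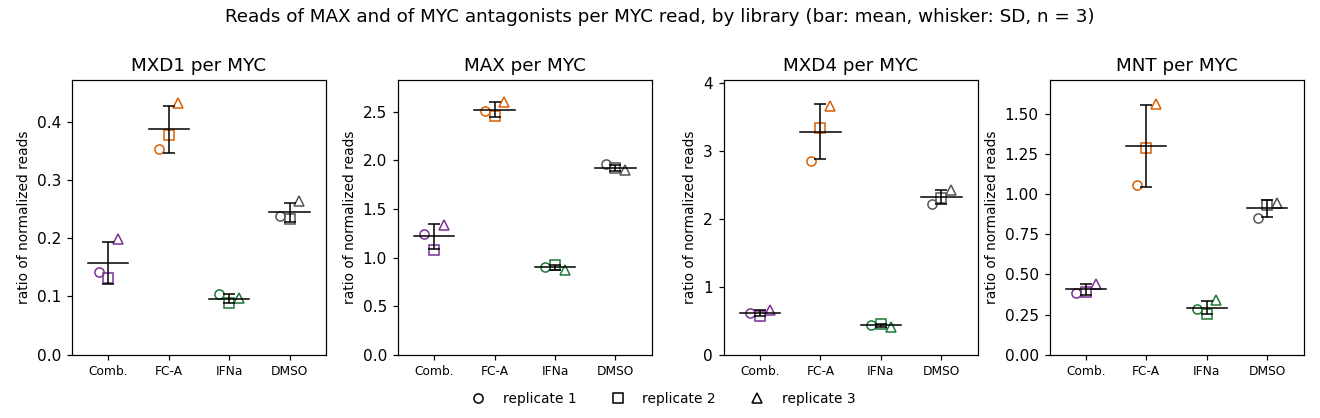
Normalized reads of MXD1, MAX, MXD4 and MNT per normalized read of MYC (y axis, from 0) by library in the 4 groups (x axis); bars are means and whiskers SD, n = 3. In all 4 panels the FC-A libraries are highest, the DMSO libraries next, and the Combination libraries lie above the IFNa libraries. That order is the reverse of the order of MYC, the shared denominator.

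The wider network gave 1 further large change. MYCL, the third MYC paralog (MYCL1 in the files), had 269, 194 and 261 normalized reads in the Combination, 538, 666 and 771 with FC-A, 224, 196 and 232 with IFNa, and 714, 656 and 776 in DMSO. All libraries with IFNa were below all libraries without. It was 3.28-fold lower with IFNa than in DMSO (log2 fold change -1.71, SE 0.14, limma adjusted p = 1.94e-07), 2.98-fold lower in the Combination than in DMSO and 2.72-fold lower in the Combination than with FC-A. MLX, the MAX-like partner of the glucose-sensing Mondo proteins and of some MXD proteins, rose 1.32-fold with IFNa (adjusted p = 6.36e-06), to 2297 ± 97.1 normalized reads with IFNa, against 1734 ± 28.3 in DMSO. It was 1.29-fold higher in the Combination than in DMSO (adjusted p = 1.53e-05).

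Of the Mondo proteins themselves, MLXIP (MondoA) and MLXIPL (ChREBP) were lower in the Combination than with FC-A (log2 fold change -0.20 and -0.71, limma adjusted p = 0.0176 and 0.0281) and did not pass in other comparisons in the main limma fit. Each of these 2 calls was lost in 4 alternatives, for MLXIP up to an adjusted p of 0.0849 and for MLXIPL up to 0.103 (both without Combination replicate 2), and both were lost without FC-A replicate 3 (0.0777 and 0.0983). MLXIP was also lost without Combination replicate 1 (0.0626) and MLXIPL without FC-A replicate 2 (0.0668). MLXIP was called lower with IFNa than in DMSO in 4 of 25 alternatives, among them quantile scaling (-0.31, adjusted p = 0.00214). MLXIPL was called lower there in 3 (limma adjusted p = 0.0107 to 0.0352). In the Combination against DMSO, MLXIP was called lower with quantile scaling (0.0223) and MLXIPL in 2 alternatives (0.0281 and 0.0499). Under the replicate block MLXIP was called higher with FC-A than in DMSO (0.0475). MGA, a very large MAX partner that scaffolds a polycomb complex, passed in no comparison in the main limma fit, at 2256 ± 335, 2442 ± 309, 2371 ± 107 and 2339 ± 174 normalized reads in the Combination, FC-A, IFNa and DMSO groups. With quantile scaling MGA was called lower in the Combination than with FC-A (-0.27, limma adjusted p = 0.0492). TXNIP, a MondoA target whose product restrains glucose uptake, was highest with both agents. It had 1969, 1985 and 2604 normalized reads in the Combination, 1184, 1464 and 1825 with FC-A, 1242, 1314 and 1499 with IFNa, and 1084, 1001 and 1294 in DMSO. The Combination lay above all other libraries. TXNIP was 1.93-fold higher there than in DMSO (log2 fold change 0.95, adjusted p = 9.61e-05) and 1.48-fold higher than with FC-A (adjusted p = 0.00575), while the difference from IFNa missed the threshold (0.68, adjusted p = 0.0741, all by limma). DESeq2 called that difference (adjusted p = 0.00102) and edgeR did not (0.0681). ARRDC4, the other MondoA target listed, had a log2 fold change of 0.31 for FC-A against DMSO. DESeq2 called it (adjusted p = 0.0150), and limma (0.115) and edgeR (0.0893) did not. DESeq2 was 1 of 2 settings, among 24 alternatives, that called it. Both TXNIP and ARRDC4 had an unadjusted limma p under 0.05 in FC-A against DMSO.

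Among the 12 corepressor genes that the MXD proteins and MNT recruit, IFNa against DMSO called 4 higher and 2 lower, close to the share of all genes called (25.4% higher and 21.5% lower). The scaffolds SIN3A (log2 fold change 0.22, limma adjusted p = 0.00581) and SIN3B (0.19, adjusted p = 0.0265) rose by less than 1.2-fold, and SAP30, a small subunit that links SIN3 to deacetylase, fell by 0.41 (adjusted p = 0.0159). The SAP30 call was lost without IFNa replicate 1 (0.0814) or DMSO replicate 1 (0.0521), and that of SIN3B was lost in 4 alternatives, among them without IFNa replicate 3 or DMSO replicate 3. FC-A against DMSO and the Combination against IFNa called 0 of the 12 by limma, edgeR and DESeq2, and 0 had an unadjusted limma p under 0.05. With quantile scaling IFNa called 0 higher and 5 lower. SIN3A (0.02) and SIN3B (0.05) kept their sign there and lost the call.

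Of 17 coactivator genes that MYC recruits, 4 rose with IFNa and 1 fell, a smaller share than the 46.9% of all genes called. KAT2B (PCAF, a histone acetyltransferase) had 1175, 1325 and 1352 normalized reads in the Combination, 192, 225 and 285 with FC-A, 1131, 966 and 1219 with IFNa, and 199.5, 199.96 and 215 in DMSO. The libraries with and without IFNa were far apart, with a 5.35-fold rise over DMSO with IFNa (log2 fold change 2.42, SE 0.12, limma adjusted p = 1.05e-09) and a 6.23-fold rise in the Combination. CCNT1, the cyclin of the elongation kinase that MYC recruits, rose 1.35-fold with IFNa (adjusted p = 2.46e-05). EP400, the ATPase of the TIP60 complex, was lower with IFNa by 0.27 (adjusted p = 0.0327), a call lost in 6 alternatives (up to 0.133), including those without IFNa replicate 1 (0.106), IFNa replicate 3 (0.106), DMSO replicate 2 (0.0534) or DMSO replicate 3 (0.133). In the polycomb complex around MGA, IFNa against DMSO called 2 of 9 genes higher (25.4% of all genes were higher and 21.5% lower), E2F6 (0.35) and RNF2 (0.28), and 1 lower, the histone methyltransferase gene EHMT2 (-0.35).

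Of 20 genes that set the lifetime of MYC protein, IFNa against DMSO called 7 higher and 5 lower by limma (25.4% of all genes were higher and 21.5% lower). The Combination against DMSO called 7 higher and 3 lower (26.1% and 22.2% of all genes), and the comparisons that isolate FC-A called 0. At an unadjusted limma p under 0.05 there were 0 in FC-A against DMSO, where edgeR and DESeq2 also called 0. In the Combination against IFNa there were 2, PPP2R5A higher and SKP2 lower, where edgeR called 0 and DESeq2 1. USP36, a nucleolar deubiquitinase that stabilises MYC, rose 1.57-fold with IFNa (limma adjusted p = 3.16e-07), to 5483 ± 74.8 normalized reads with IFNa, against 3497 ± 138 in DMSO. PPP2R5A, a phosphatase subunit that promotes MYC turnover, rose too, 1.47-fold with IFNa (adjusted p = 3.8e-07) and 1.66-fold in the Combination (adjusted p = 1.57e-08). SKP2, a ubiquitin ligase subunit for MYC, fell 1.34-fold with IFNa and 1.60-fold in the Combination, both relative to DMSO. AURKA, a mitotic kinase that shields MYCN from degradation, fell 1.56-fold with IFNa (adjusted p = 1.41e-05) and 1.68-fold in the Combination. Protein levels were not measured.

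Known MYC targets in ribosome production were higher with IFNa in a majority of the list, by small amounts. Of 38 genes, 24 rose, 1 fell and 13 did not pass (25.4% of all genes were higher and 21.5% lower), with a median log2 fold change of 0.26 against -0.01 for all genes. POLR1B, a core subunit of RNA polymerase I, had 4982, 5044 and 5550.03 normalized reads in the Combination, 3412, 3124 and 3085 with FC-A, 5427, 5406 and 5376 with IFNa, and 3689, 3387 and 3472 in DMSO. It rose 1.54-fold with IFNa over DMSO (log2 fold change 0.62, SE 0.06, limma adjusted p = 4.63e-07), as did WDR43, a factor of small-subunit processing (log2 fold change 0.62). PPRC1, a growth-regulated coactivator, rose 1.50-fold. UBTF, which opens ribosomal DNA for RNA polymerase I, was the 1 gene that fell (log2 fold change -0.26, adjusted p = 0.00027). Quantile scaling, under which the median of all genes was -0.0991 in IFNa against DMSO, called 14 higher and 6 lower in this list. It gave the list a median of 0.08.

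The ribosome list had medians below 0 in both comparisons that isolate FC-A. The Combination against DMSO called 16 of the 38 higher and 3 lower (26.1% of all genes were higher and 22.2% lower), with a median of 0.13. With quantile scaling 8 were higher and 10 lower, and the median was -0.04 for the list and -0.11 for all genes. In FC-A against DMSO 0 of 38 passed by limma, 33 had a negative log2 fold change and the median was -0.11, where 51.6% of all genes were negative with a median of 0.00. In the Combination against IFNa 0 passed, all 38 were negative and the median was also -0.11, where 48.6% of all genes were negative. At an unadjusted limma p under 0.05, 7 genes were lower in FC-A against DMSO (1 called by DESeq2 and 0 by edgeR) and 4 were lower in the Combination against IFNa (0 called by either tool). Without replicate 3 of every group, 11 of the 38 were called lower in the Combination against IFNa (median -0.14), and the median for FC-A against DMSO was -0.05. The median for FC-A against DMSO ran from -0.18 without FC-A replicate 1 to -0.01 without FC-A replicate 3, where 23 of the 38 were negative. The 38 genes are read from the same libraries and are not 38 independent observations.

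Targets in metabolism and translation were split. Of 32 tested, IFNa against DMSO called 12 higher and 4 lower by limma, 16 in all, where 46.9% of all genes were called (median 0.12). With quantile scaling 3 were higher and 10 lower, and the median was -0.08 for the list and -0.0991 for all genes. HK2, the glycolytic hexokinase, had 3904, 4068 and 4884 normalized reads in the Combination, 1456, 1501 and 1701 with FC-A, 3907, 3711 and 4159 with IFNa, and 1830.3, 1725 and 1824 in DMSO. It rose 2.19-fold with IFNa (limma adjusted p = 4.4e-08) and 2.38-fold in the Combination relative to DMSO (adjusted p = 1.31e-08), and the libraries with and without IFNa did not overlap. ODC1, the first enzyme of polyamine synthesis and a classical MYC target, fell to 4247 ± 706 normalized reads with IFNa, against 6786 ± 334 in DMSO (log2 fold change -0.69, adjusted p = 0.000318), and the Combination fell by 0.98 (adjusted p = 1.17e-05). CAD, the enzyme that starts pyrimidine synthesis, fell by 0.35 with IFNa and by 0.53 in the Combination relative to DMSO. Both genes thus moved opposite to MYC.

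Of 14 targets tested in the cell cycle, 1 rose and 4 fell with IFNa (25.4% of all genes were higher and 21.5% lower), and 1 rose and 7 fell in the Combination (26.1% and 22.2% of all genes), both against DMSO. The median log2 fold change in the Combination was -0.31 against -0.01 for all genes. E2F2, an activator of S-phase genes, had 906, 848 and 820.01 normalized reads in the Combination, 1352, 1395 and 1318 with FC-A, 1027, 1046 and 989.6 with IFNa, and 1446, 1489.6 and 1405 in DMSO. The libraries of the Combination were below all others, IFNa came next, and FC-A lay just below DMSO. E2F2 fell by 0.50 with IFNa (limma adjusted p = 3.75e-06) and by 0.75 in the Combination (adjusted p = 4.34e-08), and the Combination against IFNa missed the threshold (-0.25, adjusted p = 0.0747). The 1 gene that rose was CKS1B, a small subunit of cyclin-dependent kinases (log2 fold change 0.51 with IFNa and 0.52 in the Combination), whose symbol has a second, rarely read entry in the files. PLK1, a mitotic kinase, fell by 0.54 with IFNa and E2F1 by 0.36, the E2F1 call being lost without IFNa replicate 3 (adjusted p = 0.0629). Without IFNa replicate 3, the IFNa counts were 3 higher and 2 lower.

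Genes that MYC is known to repress did not move as one. Of 9, IFNa against DMSO called 3 higher and 4 lower (25.4% of all genes were higher and 21.5% lower). The Combination against DMSO called 4 higher and 5 lower (26.1% and 22.2% of all genes). CDKN1A, the p21 inhibitor of cyclin-dependent kinases, rose 3.76-fold with IFNa (limma adjusted p = 1.5e-11) and so had the same sign as MYC. It was also the list's 1 call in both comparisons that isolate FC-A, at a log2 fold change of 0.42 for FC-A against DMSO (adjusted p = 0.0183) and 0.40 for the Combination against IFNa (adjusted p = 0.0273). These calls were lost, with an adjusted p above 0.05, in 7 of 25 alternatives for FC-A against DMSO (up to 0.131) and in 8 for the Combination against IFNa (up to 0.216). Single libraries were enough for this, among them DMSO replicate 2 and IFNa replicate 1, whose removal gave those highest values. CCNG2, an atypical cyclin of resting cells, fell to 1077 ± 28.3 normalized reads with IFNa, against 2726 ± 145 in DMSO (log2 fold change -1.34, adjusted p = 3.87e-09). GADD45A, a stress gene, doubled with IFNa (log2 fold change 1.0), and its relative GADD45G fell 2.34-fold. GADD45G was rarely read, at 17.6 normalized reads with IFNa and 42.5 in DMSO.

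**Figure D4:**
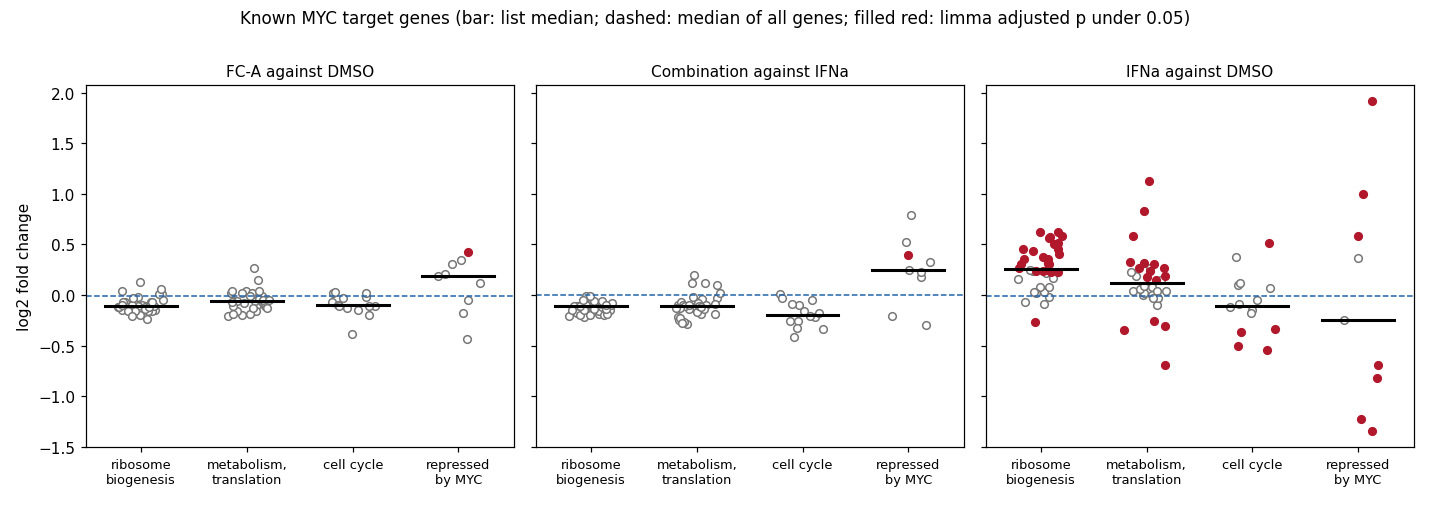
Log2 fold changes (y axis) of known MYC targets in 4 lists (x axis) for FC-A against DMSO, the Combination against IFNa and IFNa against DMSO; points are genes, bars list medians, the dashed line the median of all genes, and filled red points passed a limma adjusted p of 0.05. In the first 2 panels only CDKN1A is filled and the ribosome list has a median of -0.11, while in the third 24 of its 38 genes are filled above 0.

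Of 15 genes known to act on MYC transcription, 11 were higher and 1 was lower with IFNa than in DMSO by limma (25.4% of all genes were higher and 21.5% lower), and FC-A against DMSO called 0 by limma, edgeR and DESeq2 (1 at an unadjusted limma p under 0.05). IRF1, an interferon-induced transcription factor, rose 7.25-fold with IFNa and 8.46-fold in the Combination relative to DMSO. CTCF, the insulator protein that binds near MYC, fell by 0.14 with IFNa (log2 scale, adjusted p = 0.0216), a call lost without IFNa replicate 1 (0.0591), IFNa replicate 3 (0.0643), DMSO replicate 3 (0.0951) or replicate 3 of every group (0.104). With quantile scaling, where the median of all genes was -0.0991, 7 of the 15 were higher with IFNa.

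The genes whose profiles over the 12 libraries were most like each member were listed as a description, on log2 values. For MYC these were GRAMD3 (Pearson r = 0.995), PODXL and C3orf52 (both 0.994), and 2015 genes had an r above 0.9. For MAX they were MT2A (0.996), ECHS1 and MICALL1 (both 0.995), with 2248 genes above 0.9. These high values arise over libraries that fall into 2 clusters, with and without IFNa. For MXD1, with 267 genes above 0.9, the nearest were MGAT4A (0.976), ACSL1 (0.974) and PFKFB4 (0.972), and PFKFB4 averaged 1299 normalized reads in the Combination, 619 with FC-A, 818 with IFNa and 463 in DMSO. For MXD3 they were FGFR3, ARHGEF19 and PVRL1, and for MXD4 PNPLA6, PALM3 and SHMT1. MNT had 8 such genes, led by PRICKLE4 (0.950), TMC6 (0.921) and ATP2A3 (0.914), and MXI1 had 13, led by GEM (0.942), IDS (0.936) and CTC-297N7.8 (0.934).

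Several members lie against other genes in the GENCODE annotation, which matters where reads could be shared, since whether counting used strand is not given in the sources used here. FNTB overlaps MAX on the opposite strand and ranged from 251 to 320.3 normalized reads over the libraries. SNRNP27 overlaps MXD1 on the same strand (197 to 326). RAB24 overlaps MXD3 on the same strand (74.6 to 138), and PRELID1, a far more abundant transcript in these cells, on the opposite one (6561 to 8338). MYCNOS, the antisense gene of MYCN, had at most 3.20 normalized reads.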

How the data were processed

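The signal values are normalized counts that the authors deposited for 28035 genes and 12 libraries. Multiplied by 1 factor per library, 100% came out within 0.01 of a whole number, and the reads recovered this way entered edgeR and DESeq2. Libraries were made from poly(A) RNA with a stranded kit, per the labels' protocols. STAR 2.7.3, DESeq2 1.24.0, bcl2fastq 2.20 and FastQC, with the build hg19, are listed in the submitters' processing notes. The sources used here do not name the counter or the annotation. The authors' deposited tables give log2 fold changes and adjusted p-values in DESeq2's layout, per the file headers, and those written as IFNa or FC-A over the Combination were turned round.

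Groups came from the labels. Testing was limited to 15990 genes that averaged 10 or more normalized reads (12045 were left out), as log2(value + 1), which understates changes of low genes. limma 3.58.1 in R 4.3.3 fitted 1 model with a variance trend, with two-sided tests and Benjamini-Hochberg adjustment over all genes at 0.05. Fold changes are 2 to the power of the log2 value. edgeR 4.0.16 and DESeq2 1.42.0 were alternatives, and the fit was tested on simulated data.

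The 8 members and 11 lists (173 of 175 genes listed, with MYCL and CIP2A under older symbols) were chosen with earlier results of these data known. Named genes are all members, the wider network, up to 3 genes per direction, list and comparison, taken by size of change among those called, and the 3 genes most like each member above a mean of 50. The text names part of these. Some members of these lists are counted but not reported here by name.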

Additional observations from a re-analysis of the deposited data

How the results depend on the processing

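The 8 genes in 6 comparisons gave 48 results, of which 18 passed, and 1174 values under alternatives (other pseudocounts, 0.5 or 8, other filters, none or a mean of 50, TMM or quantile scaling, no variance trend, the compared groups only, a replicate block, edgeR, DESeq2, the authors' deposited tables, each library left out, and replicate 3 of every group left out). Of these, 1125 kept direction and call, 8 lost a call, 20 gained one and 21 changed sign, of which 0 belonged to a called result. The cause was not tested.

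For FC-A against DMSO, 48 genes of all tested passed, against 20 with no variance trend (and 0 members), 26 with the compared groups only, 289 with the replicate block, 170 by DESeq2, 134 without replicate 3, 155 in the authors' deposited table, and 16 to 119 with 1 library left out (0 to 1 members). For the Combination against IFNa it was 53, against 11, 10, 1009, 239, 1187, 231 and 4 to 510 in the same order. There 2 members passed under the replicate block (MYC, adjusted p = 0.00345, and MXD1, 0.0265), 1 by edgeR, DESeq2, without replicate 3 and in the authors' deposited table, and 0 to 1 with 1 library left out. For the interaction it was 0, against 1 with the replicate block, 3 by DESeq2 and 1 without replicate 3. MXI1 with IFNa (0.0197) and MNT in the Combination against DMSO (0.0222) and FC-A (0.04997) passed under the block. Same-numbered libraries deviated together with correlations of 0.0176 to 0.395 over genes. Between libraries of replicate 3 the correlations ran from 0.188 to 0.395. Not all correlations were above 0.1, and the main fit did not take the numbers as pairs.

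Sign changes of members, of the wider network and of CUL1 were as follows (log2). Other listed genes changed sign too, among them CNBP, which was called. In the Combination against DMSO, CNBP went from 0.16 (limma adjusted p = 0.0237) to -0.12 with quantile scaling (0.0177). In IFNa against DMSO it went from 0.26 (0.00106) to -0.043 with quantile scaling (0.370). Without replicate 3 of every group, MXI1 gave -0.0063 and MNT -0.031 in FC-A against DMSO, MNT -0.014 in IFNa against DMSO, MXI1 -0.070 and -0.063 in the Combination against DMSO and FC-A, MXD3 0.018 in the Combination against IFNa, and MLXIPL 0.12 in the interaction. Quantile scaling gave MGA -0.12 with IFNa, MXI1 -0.057 and -0.084 in the Combination against DMSO and FC-A, MLXIPL -0.011 in the Combination against IFNa and CUL1, which was called, -0.025 in the Combination against FC-A. MXI1 in the Combination against FC-A gave -0.017 with TMM and -0.0065 by edgeR, and MLXIPL in the Combination against IFNa -0.024 by edgeR, -0.028 by DESeq2 and -0.030 in the authors' deposited table.

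With 1 library left out the values ran, in FC-A against DMSO, from -0.043 to 0.066 for MXI1, -0.051 to 0.13 for MNT, -0.041 to 0.14 for MGA and -0.25 to 0.0050 for MYCL. In IFNa against DMSO they ran from -0.034 to 0.19 for MNT and -0.025 to 0.079 for MGA. In the Combination against DMSO they ran from -0.11 to 0.12 for MXI1, -0.18 to 0.024 for MGA and -0.082 to 0.021 for MLXIP. In the Combination against IFNa they ran from -0.20 to 0.042 for MXD3, -0.20 to 0.0030 for MGA and -0.28 to 0.33 for MLXIPL. MXI1 ran from -0.13 to 0.092 in the Combination against FC-A, and MLXIPL from -0.55 to 0.062 in the interaction.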
